A study of Sus scrofa with 11 samples.

Results

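Genes that release fatty acids from phospholipids or turn arachidonic acid into prostaglandins and leukotrienes were read in the *M. semimembranosus*, a muscle of the ham, of 11 purebred Duroc gilts. The 5 LP gilts were fed a diet with 128 g/kg crude protein and 7 g/kg total lysine, and the 6 HP gilts an isocaloric diet with 217 g/kg crude protein and 13.0 g/kg total lysine. Both diets were fed for 63 days of the finisher stage, and every gilt was read on its own Affymetrix Porcine Genome array, so a replicate is a gilt. The diets also differ in their wheat and soyabean meal, which cannot be told apart from dietary protein. The gilts had been blocked on initial weight. Neither that block nor the pen or slaughter date is tied to single pigs in the sources used here, so none could be fitted. The study penned the gilts in groups without saying whether the pens followed the diets, so pen may not be separable from diet either.

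The genes were chosen by name. A list of 10 genes of the pathway was matched to the probe sets to which the platform annotation gives a single symbol, and the probe set that the study names ALOX12 was added. That gave 8 of the 23999 probe sets tested, for 7 genes. These are PLA2G7, PTGS1 (on a brighter and a dimmer probe set), PTGS2, PTGES, PTGDS, ALOX5AP and ALOX12. The other 3 genes of the list, PLA2G4A, PTGIS and LTA4H, have no probe set by this rule. The study does name a probe set PLA2G4A, from its match to a human transcript, and its values are given below but are not counted among the 8. Among all of these, the study had called the PLA2G4A, PLA2G7 and ALOX12 probe sets on these same pigs. PLA2G4A and ALOX12 were named only from that list of calls. The direction, size and separation of these 3 are thus not independent evidence.

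Arachidonic acid is held in membrane phospholipids and is set free by phospholipase A2. Cyclooxygenases convert it to prostaglandin H2, from which terminal synthases make the single prostaglandins, and lipoxygenases convert it to hydroxy fatty acids and leukotrienes. In skeletal muscle prostaglandins are known for roles in growth and repair, and much of the leukotriene machinery belongs to white blood cells within the tissue.

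PLA2G7 was lower in LP muscle, PTGDS was higher at the margin of the test, and the cyclooxygenases and the lipoxygenase genes did not pass. PLA2G4A, which was picked from the study's calls, was lower as well. Of the 8 probe sets, 1 fell (PLA2G7), 1 rose (PTGDS) and 6 did not pass at an unadjusted limma p of 0.05. The study also cut at 0.05, but on a P-like value from puma. Over all 23999 probe sets 2.97% were called lower and 2.15% higher, 5.11% in all. After Benjamini-Hochberg adjustment 0 probe sets of the array passed in limma, where 1227 passed unadjusted. The smallest adjusted p was 0.644 over all probe sets and 0.918 among the 8. Of the 8, 7 lay above the negative controls on at least 1 array, and 6 of these 7 were below 0 in LP minus HP, with a median log2 difference of -0.36. ALOX12, 1 of the 6 below 0, entered through the study's calls, where it was lower in LP. The median over all probe sets was -0.02, and 52.6% of them were below 0. Over genes, each by its brightest probe set, the median was -0.04, and 57.5% were below 0. These shares were taken without a background filter.

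**Figure D1:**
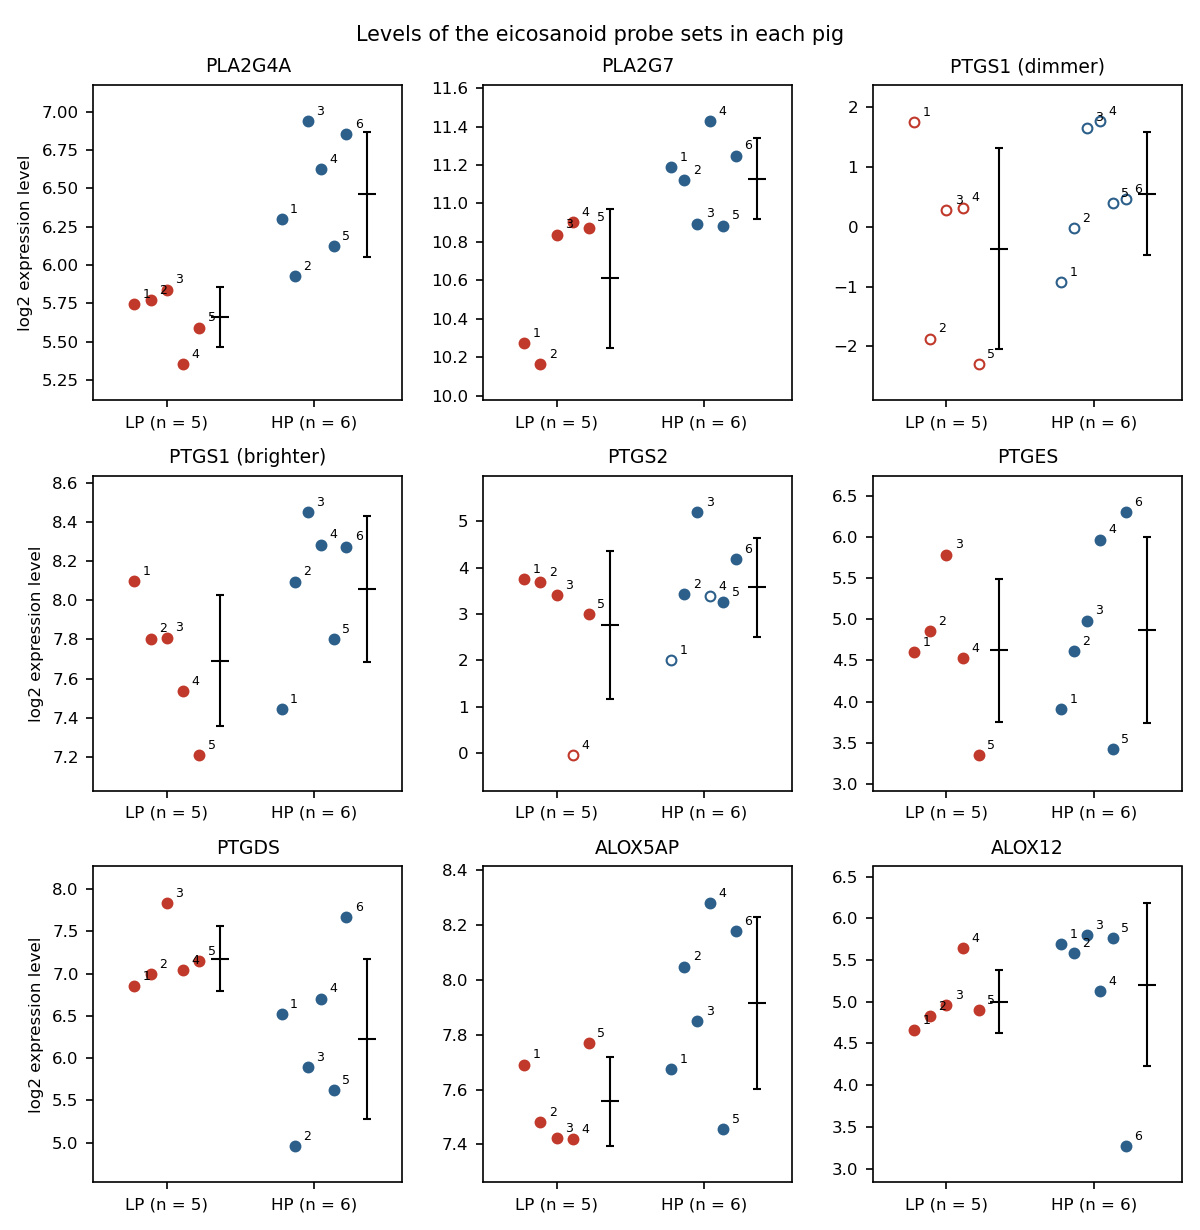
Log2 expression level (y axis) of each probe set in every pig, LP left and HP right, with replicate numbers beside the points. Open points did not exceed the highest negative control of their array, and bars give the mean ± SD. All 5 LP pigs lie below all 6 HP pigs for PLA2G4A, and the groups overlap in the other panels.

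Levels are on the log2 scale of the authors' deposited values, in which every array has the median 6.72, and differences are LP minus HP on this scale. A level counted as above background if it was over the highest of the array's 23 negative controls, which lay between 1.96 and 3.58. Precision is limited by the number of arrays. The spike-ins added before hybridisation differed by -0.26 in their mean (LP 11.4 to 11.8, HP 11.3 to 12.2, exact permutation p = 0.186), and the excess of the actin 3′ over its 5′ signal, a measure of RNA integrity, by -0.43 (LP 5.12 to 5.93, HP 5.38 to 6.46, exact permutation p = 0.123). Their part in the results below was not tested. HP replicates 1, 2 and 4 have the brightest upper end of the 11 arrays. The muscle fibre markers MYH7, CKM and DES lay above background on all arrays, as labelled for muscle. Of 42 measured markers of 11 cell types, 0 rose and 2 fell, the pericyte gene RGS5 (log2 difference -0.44) and the B cell gene CD79B, which lay above background on no array.

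PLA2G4A, the cytosolic calcium-dependent phospholipase A2 that frees arachidonic acid, had the clearest separation between the diets among the 9 probe sets plotted by pig. This probe set was named only from the study's calls on these pigs. Its separation, p and stability given here follow in part from that choice. Its level was 5.75, 5.77, 5.84, 5.35 and 5.59 in LP replicates 1 to 5, against 6.30, 5.92, 6.94, 6.62, 6.12 and 6.85 in HP replicates 1 to 6. Every LP pig was below every HP pig, as for 0.329% of all probe sets, while 0.25% had every LP pig above every HP pig (0.579% without overlap in all). None of the 8 probe sets had groups without overlap. PLA2G4A fell by 0.80 (standard error 0.20, 95% interval -1.24 to -0.36), so that HP muscle had 1.74-fold more (limma p = 0.00215, adjusted p = 0.701, exact permutation p = 0.00433). The HP pigs were also more spread, with an SD of 0.19 in LP and of 0.41 in HP. The call held in 19 of 19 alternatives that gave a value, with differences between -0.98 and -0.71. These are not 19 separate checks. Centring on the median changed almost nothing, because every array already had the same median. A fit with the replicate number as a block gave the same difference as leaving out HP replicate 6 (-0.72). The exact permutation test, also counted, fits no new difference. In the assembly Sscrofa11.1 the annotated spans of PLA2G4A and PTGS2 overlap, and whether a probe of either probe set lies in the shared stretch was not analysed here.

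PLA2G7, a secreted phospholipase A2 that hydrolyses platelet-activating factor and oxidised phospholipids and is made largely by macrophages, was lower in LP muscle as well. LP replicates 1 to 5 had levels of 10.27, 10.16, 10.84, 10.90 and 10.87, and HP replicates 1 to 6 had 11.19, 11.12, 10.89, 11.43, 10.88 and 11.25. All 5 LP pigs were below the HP mean and 4 of 6 HP pigs were above every LP pig, while LP replicates 3 to 5 lay close to HP replicates 3 and 5. LP muscle averaged 10.61 ± 0.36 and HP muscle 11.13 ± 0.21 (SD, n = 5 LP and 6 HP). This is a fall of 0.52 (standard error 0.18, 95% interval -0.91 to -0.12), or 1.43-fold more in HP (limma p = 0.0146, exact permutation p = 0.0108). The call held without any single array (-0.59 to -0.41), but not without HP replicates 1, 2 and 4 together (-0.40).

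Macrophage markers leaned the same way as PLA2G7 without passing the test. All 6 of the 6 measured markers (CD163, CD14, AIF1, C1QA, C1QC and MRC1, of 10 listed) were below 0, with a median difference of -0.31, and 0 of 6 passed. Each lay above background on all arrays. Their summed level overlapped between the diets, between 9.74 and 10.51 in LP and between 9.58 and 10.97 in HP on the log2 scale. The lean was not particular to macrophages. Markers of skeletal muscle fibre (3 of 3 below 0, median -0.21) and fibroblasts (2 of 3, median -0.28) leaned alike. Lymphocyte (0.18), adipocyte (0.22), red blood cell (0.15) and mast cell and granulocyte markers (0.02) had medians above 0. Of all genes by their brightest probe set, 57.5% were below 0. The part of the macrophage markers in the PLA2G7 result was not tested, and in whole muscle fewer cells of a type and less RNA per cell cannot be told apart.

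The cyclooxygenases are the enzymes that commit arachidonic acid to prostaglandins, PTGS1 as the constitutive form and PTGS2 as the inducible form. PTGS1 on its brighter probe set had levels of 8.10, 7.80, 7.81, 7.53 and 7.21 in LP replicates 1 to 5, against 7.44, 8.10, 8.45, 8.28, 7.80 and 8.27 in HP replicates 1 to 6. The ranges overlapped over most of their length, and HP replicate 1 was the lowest of its group. The difference was -0.37 (standard error 0.21, 95% interval -0.84 to 0.10) and did not pass (limma p = 0.113, exact permutation p = 0.126). Without HP replicate 1 it was -0.49 and passed. The dimmer PTGS1 probe set lay below the negative controls on all 11 arrays, at -2.29 to 1.75 in LP and -0.92 to 1.77 in HP, so it gives no fold and cannot test the brighter one.

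PTGS2 was near background in both groups. LP replicates 1 to 5 had levels of 3.75, 3.68, 3.41, -0.04 and 2.99, and HP replicates 1 to 6 had 2.004, 3.42, 5.20, 3.38, 3.25 and 4.18. It exceeded the negative controls on 4 of 5 LP and 4 of 6 HP arrays, with LP replicate 4 far below the rest, LP replicate 5 barely above the controls and HP replicate 3 above them. The difference of -0.81 (standard error 0.73, 95% interval -2.43 to 0.81) did not pass (limma p = 0.294, exact permutation p = 0.379). Without LP replicate 4 it was -0.11, without HP replicate 3 it was -0.49, and with low values set to a common floor -0.34. A difference of PTGS2 was not detectable at this signal.

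Of the synthases that act on prostaglandin H2, PTGES makes prostaglandin E2 and PTGDS makes prostaglandin D2. PTGES had levels of 4.60, 4.85, 5.78, 4.52 and 3.35 in LP replicates 1 to 5, and of 3.91, 4.61, 4.98, 5.97, 3.42 and 6.30 in HP replicates 1 to 6. Both groups covered nearly the same range. The difference was -0.24 (standard error 0.57, 95% interval -1.50 to 1.01, limma p = 0.678, exact permutation p = 0.697), and its sign turned without HP replicate 6 (0.04), without LP replicate 5 (0.07) and with array weights (0.02).

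PTGDS, also known as a lipocalin carrier of small lipophilic molecules, stood higher in LP muscle and was the only one of the 8 probe sets above 0. Its levels were 6.86, 6.99, 7.83, 7.04 and 7.15 in LP replicates 1 to 5, against 6.52, 4.96, 5.90, 6.70, 5.62 and 7.67 in HP replicates 1 to 6. All 5 LP pigs lay above the HP mean, and 5 of the 6 HP pigs lay below every LP pig, but HP replicate 6 lay above all LP pigs except replicate 3. The LP pigs were close together, at 7.17 ± 0.38 (SD, n = 5), and the HP pigs were spread, at 6.23 ± 0.94 (SD, n = 6). The rise of 0.95 (standard error 0.42, 95% interval 0.02 to 1.88), or 1.93-fold, just passed in limma (p = 0.0466) and did not pass the exact permutation test (p = 0.0736). The direction held without any single pig, but the limma p was above 0.05 without any 1 of HP replicates 1, 2, 3 and 5 or of the 5 LP replicates (differences of 0.69 to 1.03). It was below 0.05 without HP replicate 4 (1.04) or HP replicate 6 (1.23). Adipocyte markers ADIPOQ, FABP4 and LEP, each by its brightest probe set, did not pass (0 of 3, of 5 listed). Their differences were 0.22, -0.11 and 0.74. Their summed level was 11.9 to 12.4 in LP and 11.7 to 12.8 in HP. FABP4 dominates this sum, with a mean level of 12.1 in LP and 12.2 in HP. ADIPOQ averaged 6.57 in LP and 6.36 in HP, and LEP 5.55 and 4.81, so the sum says little about them. The study measured more intramuscular fat in LP than in HP muscle and called LEP higher in LP. The part of these markers and of fat content in the PTGDS difference was not tested.

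**Figure D2:**
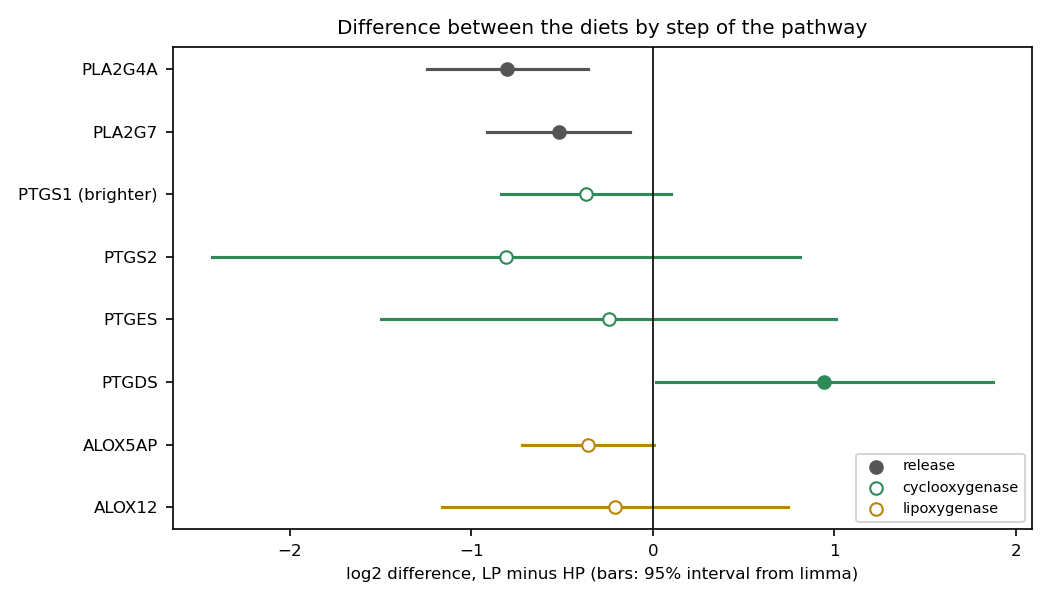
Difference between the diets (x axis, log2, LP minus HP) with its 95% interval from limma for the 8 probe sets above background on at least 1 array, PLA2G4A included, coloured by step. The cyclooxygenase colour also covers the synthases PTGES and PTGDS. Filled points passed an unadjusted p of 0.05, PLA2G4A and PLA2G7 below 0 and PTGDS above it. The intervals of PTGS1, PTGS2, PTGES, ALOX5AP and ALOX12 include 0.

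ALOX5AP (FLAP) presents arachidonic acid to 5-lipoxygenase in the making of leukotrienes and is a gene of myeloid cells. It had levels of 7.69, 7.48, 7.42, 7.42 and 7.77 in LP replicates 1 to 5, against 7.68, 8.05, 7.85, 8.28, 7.46 and 8.18 in HP replicates 1 to 6. All 5 LP pigs were below the HP mean and 4 of 6 HP pigs were above every LP pig, with HP replicates 1 and 5 inside the LP range. The difference of -0.36 (standard error 0.16, 95% interval -0.72 to 0.004) missed the threshold narrowly in limma (p = 0.0523) and in the exact permutation test (p = 0.0541). It passed in 7 of 20 alternatives, among them quantile normalization and the fit without HP replicate 5 (-0.45). The macrophage marker values given beside PLA2G7 apply here too, and their part in this difference was not tested.

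The probe set named ALOX12, after the platelet type 12-lipoxygenase of humans, turned on a single HP pig. LP replicates 1 to 5 had levels of 4.66, 4.83, 4.96, 5.65 and 4.90. HP replicates 1 to 6 had 5.69, 5.58, 5.80, 5.13, 5.76 and 3.27, so that replicate 6 was the lowest of all 11 pigs and the other 5 HP pigs lay above 4 of the 5 LP pigs. The difference over all pigs was -0.21 (standard error 0.43, 95% interval -1.16 to 0.75) and did not pass (limma p = 0.641, exact permutation p = 0.721). Without HP replicate 6 it was -0.59 and passed, and without HP replicates 1, 2 and 4 together it was 0.05.

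The annotation assigns ALOX12 as an older name to porcine ALOX15, which has a probe set of its own and was singled out for this reason after its values were seen. ALOX15 averaged 3.43 in LP and 4.53 in HP, above background on 3 of 5 LP and 5 of 6 HP arrays, and its difference of -1.10 (standard error 0.52) did not pass (limma p = 0.0609, exact permutation p = 0.0887).

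**Figure D3:**
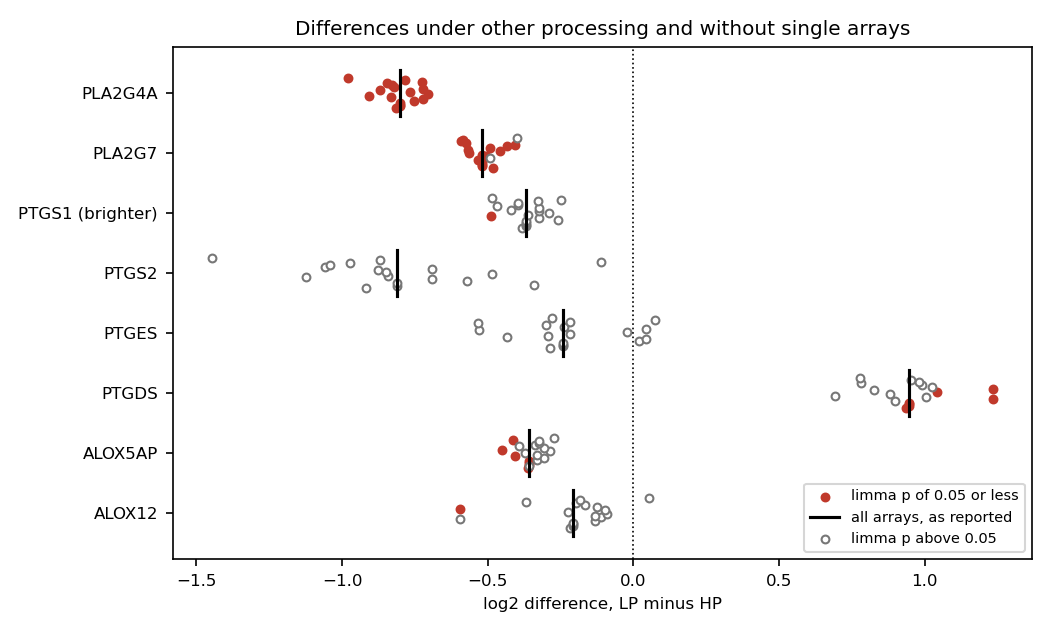
Difference between the diets (x axis, log2, LP minus HP) of the same probe sets in each other fit, by scaling, filter, prior, weights, block or arrays left out. The vertical black lines give the values from all arrays and red points passed a limma p of 0.05. PLA2G4A points are all red, PTGDS points are mostly open and stay above 0, and ALOX12 has 1 red point, the fit without HP replicate 6.

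Few other genes of the pathway passed. Of 95 listed symbols for supply, release, synthesis, breakdown and receptors, 38 were measured as genes, each by its brightest probe set, and 1 rose and 1 fell. That is 5.26% of the 38, against 4.73% of the 6765 genes read in this way (1.57% higher and 3.16% lower). Of the 38, 35 lay above background on at least 1 array, and their median difference was -0.04, as was that of all 6765 genes. None of the 10 measured genes of the phospholipase list passed, which also holds related hydrolases and ANXA1, not a hydrolase. Among the 10 were PLA2G12A, a secreted phospholipase A2, and PAFAH2, PAFAH1B1 and PAFAH1B2, genes of platelet-activating factor hydrolases or their subunits. A dimmer probe set of PAFAH2, an intracellular relative of PLA2G7, rose by 0.29 (limma p = 0.0401, exact permutation p = 0.0195). It was singled out after its values were seen as the 1 of 20 dimmer probe sets of these genes that passed. Neither the brightest PAFAH2 probe set, at 0.04, nor the remaining dimmer one, at 0.34 (limma p = 0.0613, exact permutation p = 0.0606), passed. None of 7 other genes of prostanoid synthesis and breakdown or 3 of the prostanoid receptor list, PTGFRN included, passed in limma. Nor did 5 of lipoxygenase and leukotriene enzymes or 2 of leukotriene receptors. CYSLTR2, 1 of these receptors, came close, at 0.34 and above background on all arrays (limma p = 0.0501, exact permutation p = 0.0476). It was singled out after its values were seen.

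Both called genes belong to the 11 measured genes of arachidonic acid supply and re-acylation and encode acyl-CoA synthetases, which activate free fatty acids. ACSL1, the main such enzyme of fat and muscle, had levels of 11.47, 11.56, 11.64, 12.18 and 12.29 in LP replicates 1 to 5, against 12.29, 12.18, 11.81, 12.56, 12.46 and 12.32 in HP replicates 1 to 6. LP replicates 1 to 3 were below all HP pigs and LP replicates 4 and 5 were within the HP range. It fell by 0.44 (standard error 0.19, limma p = 0.0429, exact permutation p = 0.0455), a call of the study on these pigs too, and did not pass without any 1 of HP replicates 1, 2, 4, 5 and 6 or LP replicates 1, 2 and 3 (-0.46 to -0.35). ACSL6 had levels of 2.46, 3.73, 3.03, 2.98 and 3.57 in LP replicates 1 to 5, against 0.37, 1.71, 2.32, 1.44, 2.39 and 3.10 in HP replicates 1 to 6. It exceeded the negative controls on 3 of 5 LP and 2 of 6 HP arrays, so its rise of 1.27 (standard error 0.44, limma p = 0.0152, exact permutation p = 0.0238) rests on values at background. With low values set to a common floor it was 0.44, still past the threshold, and without HP replicates 1, 2 and 4 together it was 0.55 and did not pass. The other ACSL6 probe set, at 0.46, did not pass. ACSL4, the synthetase that prefers arachidonic acid and is given for that reason, differed by 0.02 (standard error 0.15) and did not pass.

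**Figure D4:**
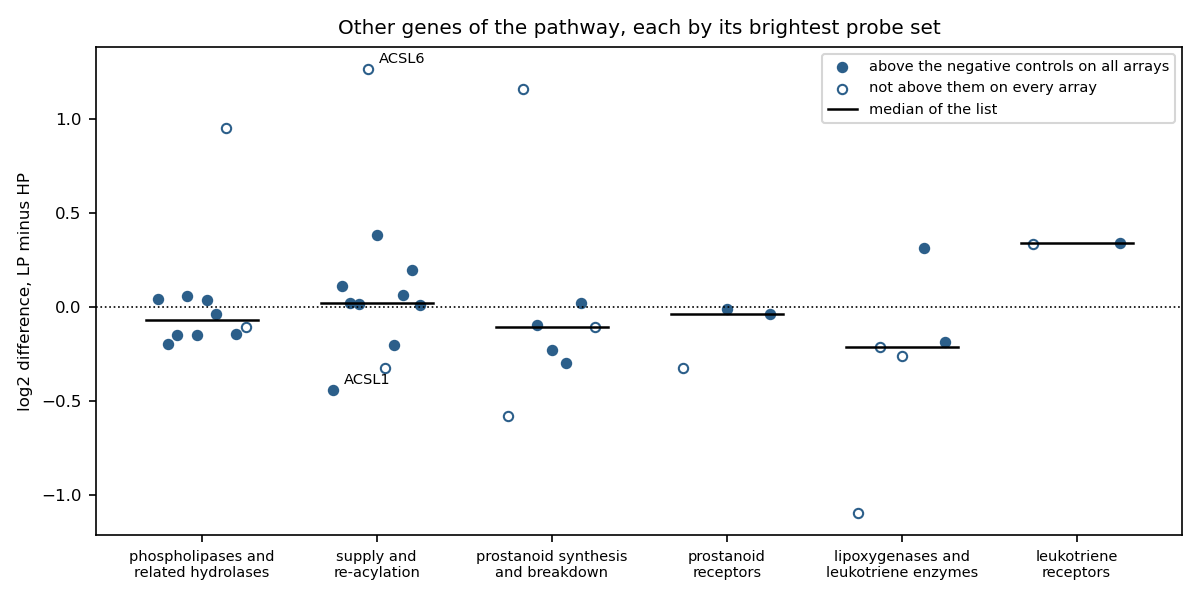
Difference between the diets (y axis, log2, LP minus HP) of the 38 other pathway genes by list (x axis), with the median of each list as a bar. Open points were not above the negative controls on every array, and only the 2 named genes, ACSL1 below 0 and ACSL6 above it, passed a limma p of 0.05.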

How the data were processed

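RNA of each pig was amplified, biotin labelled and hybridised to its own array. The deposited log2 levels, 1 per probe set and array, had been scaled by the authors, who worked in R and Bioconductor with puma. The sources used here do not state the background and normalization steps. Of 24123 probe sets, 124 controls were left out. LP minus HP was fitted for the 23999 others with limma 3.58.1 in R 4.3.3 (constant prior, two-sided, no covariate), and tested on simulated data. Single probe sets also had a two-sided exact permutation test (462 ways to draw the 5 LP pigs), whose smallest p is 0.00216. Platform symbols named 7 of the 8 probe sets.

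The members, lists and tests were chosen with earlier results of these data known. All probe sets of the members are described, and of the other pathway genes those whose brightest probe set passed. Outside this rule, and after their values were seen, ALOX15 was added for its shared name with ALOX12, ACSL4 for its substrate and PAFAH2 for a dimmer probe set that passed. CYSLTR2 was added for its exact permutation p. PLA2G12A, PAFAH1B1, PAFAH1B2, ANXA1 and PTGFRN were named to describe their lists. Alternatives were other scalings, a filter on dim probe sets, a floor at the 20th percentile, a trended robust prior, array weights, a replicate block and arrays left out. For single probe sets the exact permutation test was counted among them. Same-numbered LP and HP pigs did not deviate together (correlations of -0.07 to 0.08), so the numbers were not taken as pairs.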

Additional observations from a re-analysis of the deposited data

Results flagged for a closer look

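Single arrays lay far from the rest of their group (Dixon's test at its 95% critical value) in 2 of 22 groups searched, and chance alone gives about 1 in 20. PTGS2 was at -0.037 in LP replicate 4, where the nearest other LP pig was at 2.99. The first value is under the background limit of its array (2.64) and the other barely over its own (2.98), so the gap lies at background. ALOX12 was at 3.27 in HP replicate 6, where the nearest other HP pig was at 5.13.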

How the results depend on the processing

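Of the 8 probe sets, 2 were called over all arrays, against 1 with array weights, 1 with the exact permutation test and 0 without HP replicates 1, 2 and 4 together. Quantile normalization, the floor and the trended robust prior gave 3 each. Leaving out single arrays gave 1 to 3. With the replicate number as a block, which the numbers do not warrant as a pairing, 1 was called and PLA2G7 missed the threshold (-0.49), and PTGES turned to 0.04. HP replicate 6 is alone in its block, so these differences equal those of the fit without that pig, and only the standard errors differ. PTGDS missed the threshold with array weights (0.90) and without HP replicates 1, 2 and 4 together (0.78). Of the 38 other pathway genes 2 were called, against 1 with dim probe sets left out, 4 with array weights and 1 to 4 without single arrays, and ACSL6 did not pass without HP replicates 1, 2 and 4 together (0.55). Over all probe sets 1227 of 23999 were called, against 710 of the 12000 kept when dim probe sets were left out. The number was 1599 with array weights, 1884 without HP replicates 1, 2 and 4 together and 1066 to 1521 without single arrays. Apart from the probe sets that the filter on dim ones removed, the cause of these shifts was not tested. No call changed sign. The filter on dim probe sets removed 5 of the 8 probe sets, PLA2G4A and ACSL6, which therefore have no value there. Low signal limits PTGS2, ACSL6 and the dimmer PTGS1 probe set, whose sign turned with the floor (0.02).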
